A study of Mus musculus with 8 samples.

Results

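The fibroblast growth factor (FGF) ligands Fgf4, Fgf8, Fgf15 and Fgf17, the receptors Fgfr1, Fgfr2, Fgfr3 and Fgfr4 and the secreted FGF-binding protein Fgfbp1 were followed in mouse embryonic stem cells (ESCs). These 9 genes were taken by symbol from the 52550 genes listed, and each was found by its Ensembl identifier in all 8 libraries and passed the filter on low counts. Messenger RNA was sequenced from control and Dax1KO ESCs at passage 3, with 2 libraries in each of 4 groups. Dax1 (Nr0b1) is an orphan nuclear receptor that acts mainly as a corepressor, and Dax1KO cells came from CRISPR/Cas9 delivered by lentivirus, with colonies picked, so a Dax1KO line stands for a clone. In 2i/LIF, control and Dax1KO cells grew in N2B27 with 1 µM PD0325901, a MEK inhibitor, 3 µM CHIR99021, a GSK3 inhibitor, and 10 ng/ml LIF. In LIF/serum, both grew in DMEM with 15% FBS and 10 ng/ml LIF, without the inhibitors, and gelatin coated the plates in all 4 groups. The sources used here do not say whether the 2 libraries of a group came from separate cultures, so the p-values measure the spread between these libraries.

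FGF ligands bind receptor tyrosine kinases together with heparan sulfate on the cell surface and signal mainly through Ras, MEK and ERK. In mouse ESCs Fgf4 is the best known autocrine ligand, and its signal drives cells away from naive pluripotency, while in the blastocyst Fgf4 made by the epiblast directs neighbouring cells to primitive endoderm through Fgfr1 and Fgfr2. PD0325901 acts at MEK, below the receptors, and MEK-ERK signalling induces its own feedback inhibitors, such as the Sprouty and Dusp genes.

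Fgf4 is a target of Sox2 and Oct4 (Pou5f1), which bind side by side in an enhancer that lies within the last exon. The site is shown because it sits in the Fgf4 message itself. It was found by its capital letters as printed, with any 3 bases between them, searched on both strands of the transcripts, at chr7:144864388-144864417 (GRCm38, plus strand), in exon 3, in the 3′ UTR, 1453 bases after the end of the coding sequence. Of 55450 genes with an annotated transcript, 1 held the pattern, and this was Fgf4. The pattern is made of the Fgf4 site's own letters, so this match was fixed in advance. Sequence outside transcripts was not searched, so the count does not measure how rare Sox and POU sites are. Capitals mark the Sox and the POU element of the pattern in the GENCODE transcript.
Fgf4 enhancer site: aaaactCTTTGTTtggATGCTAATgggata

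Promoters are shown for the most abundant ligand and for the 2 receptors called higher in Dax1KO cells in LIF/serum, each with the bases before the annotated gene or transcript start only. The sequences are those of RefSeq on GRCm38.p6, which had entries for 5 of the 9 genes (Fgf4, Fgfr2, Fgfr3, Fgfr4 and Fgfbp1). Capitals mark matches to the GC box GGGCGG on either strand and to TATATA. The stretches lie on the plus strand at chr7:144861136-144861385 for Fgf4, chr5:33721474-33721673 for Fgfr3 and chr13:55152568-55152639 for Fgfr4.
Fgf4 promoter: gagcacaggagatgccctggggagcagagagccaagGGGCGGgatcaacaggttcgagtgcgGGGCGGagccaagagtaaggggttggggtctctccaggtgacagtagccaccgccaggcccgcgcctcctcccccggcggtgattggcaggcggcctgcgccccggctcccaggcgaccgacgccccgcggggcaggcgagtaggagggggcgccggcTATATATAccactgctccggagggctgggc
Fgfr3 promoter: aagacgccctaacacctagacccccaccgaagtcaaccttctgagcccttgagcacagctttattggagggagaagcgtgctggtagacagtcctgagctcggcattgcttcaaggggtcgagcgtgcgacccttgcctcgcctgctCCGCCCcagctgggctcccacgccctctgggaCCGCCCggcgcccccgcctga
Fgfr4 promoter: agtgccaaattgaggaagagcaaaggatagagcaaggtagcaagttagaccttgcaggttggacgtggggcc

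In the full 250 bases before these RefSeq starts, GGGCGG matched 2 times in Fgf4, 3 times in Fgfr3 (not all within the printed stretch) and 2 times in Fgfr4 (past the printed stretch), and 32.7% of 32851 RefSeq promoter windows of that length held it. Fgfr3 has another RefSeq entry, with the window chr5:33722056-33722305, which is not printed and held 2 matches. TATATA matched 2 overlapping times in Fgf4, against 5.25% of windows with a match. The nuclear receptor half-site AAGGTCA and its extended form TCAAGGTCA, which contains it, were in 4.08% and 0.387% of windows, searched on both strands, and in none of the windows of the 5 genes.

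Counts summed to between 35911384 and 37286251 per library. In 2i/LIF, Dax1 was counted 456 and 300 times in control cells and 0 times in both Dax1KO libraries, at least 129-fold lower against a floor of 3 counts per library. In LIF/serum it was counted 5095 and 4689 times in control cells and 14 and 6 times in Dax1KO cells. Of 7 pluripotency markers, all were detected in all libraries. Their summed level was 175848 to 177949 normalised counts in control cells in 2i/LIF and 137859 to 143790 in LIF/serum. In Dax1KO cells it was 163595 to 170251 and 132331 to 143821. Between media in control cells, 3 were called higher in 2i/LIF and 1 lower (backgrounds 20.3% and 16.5%). Means there were higher for Nanog (69650 against 26582), Tfcp2l1 and Klf4, and lower for Pou5f1 (25284 against 40632), Zfp42, Sox2 and Esrrb. Between Dax1KO and control cells, the median log2 fold change over chromosome 6 was 0.44 (2i/LIF) and 0.52 (LIF/serum), and none of the 9 FGF genes lies there.

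The 9 messages differed widely in abundance. Levels were compared between genes as counts per kilobase of merged exons per 1000000 counts, after TMM scaling. In control cells in 2i/LIF, the level of Fgf4 was 82.1 ± 7.92 (SD, n = 2 here and below) and that of Fgfr1 was 24.5 ± 0.158, and the other 7 genes lay between 0.327 for Fgfr3 and 2.12 for Fgfbp1. Fgf4 therefore stood first and Fgfr1 second, followed by Fgfbp1, by Fgf8, Fgfr4 and Fgf15, whose neighbouring levels overlapped, by Fgf17, and by Fgfr2 and Fgfr3, which overlapped each other.

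In control cells in LIF/serum the order was different below Fgf4. The level per length of Fgf4 was 59.8 ± 2.83, that of Fgf17 was 37.2 ± 0.461, that of Fgfr1 was 12.0 ± 0.996 and that of Fgf15 was 8.80 ± 0.927, and none of these neighbours overlapped. Fgfbp1 and Fgfr4 followed with overlapping levels of 1.63 and 1.45, then Fgfr2 at 1.04, Fgf8 at 0.568 and Fgfr3 at 0.267.

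Dax1KO cells in 2i/LIF kept Fgf4 first, at a level per length of 73.3 ± 1.51, and Fgfr1 second at 25.2 ± 0.543, with Fgf17 at 0.401 ± 0.0764, the lowest mean, overlapping Fgfr3 at 0.651 ± 0.304. In LIF/serum they had Fgf4 at 59.2 ± 1.29 and Fgfr1 at 9.28 ± 0.578, and then Fgf15 at 5.65 ± 2.28 and Fgf17 at 4.57 ± 1.04, which overlapped. Fgfr4 came next at 2.96 ± 0.0503, and Fgfr3, Fgfbp1, Fgf8 and Fgfr2 lay between 0.672 and 0.880 with each overlapping its neighbour.

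As a share of the summed level per length of the 4 ligands, Fgf4 made up 96.5% ± 0.0739 in control cells and 95.7% ± 0.114 in Dax1KO cells in 2i/LIF. In LIF/serum it made up 56.2% ± 1.94 in control cells and 84.3% ± 1.84 in Dax1KO cells, while Fgf17 made up 35.0% ± 0.883 and 6.54% ± 1.76. Among the 4 receptors, Fgfr1 made up 92.9% ± 0.0468, 89.2% ± 1.59, 81.4% ± 0.686 and 67.3% ± 0.990 in control and Dax1KO cells in 2i/LIF and control and Dax1KO cells in LIF/serum. Fgfr4 made up 4.34%, 6.09%, 9.76% and 21.5% in the same order. The size of these shares rests on the length used. With the longest transcript in place of the merged exons, Fgfr4 made up 2.41%, 3.40%, 5.50% and 12.9%, Fgfr1 94.7%, 91.6%, 84.2% and 74.5%, and Fgf15 12.8% and 12.2% of the ligands in control and Dax1KO cells in LIF/serum, where it had made up 8.28% and 7.97%. The first 2 places of the order in 2i/LIF and the first 4 in LIF/serum were held by the same genes with either length, while 15 of the 36 places differed in all, and Fgfr2 then stood above Fgfr4 in control cells in LIF/serum. These shares describe messages, and no test was made on them.

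**Figure D1:**
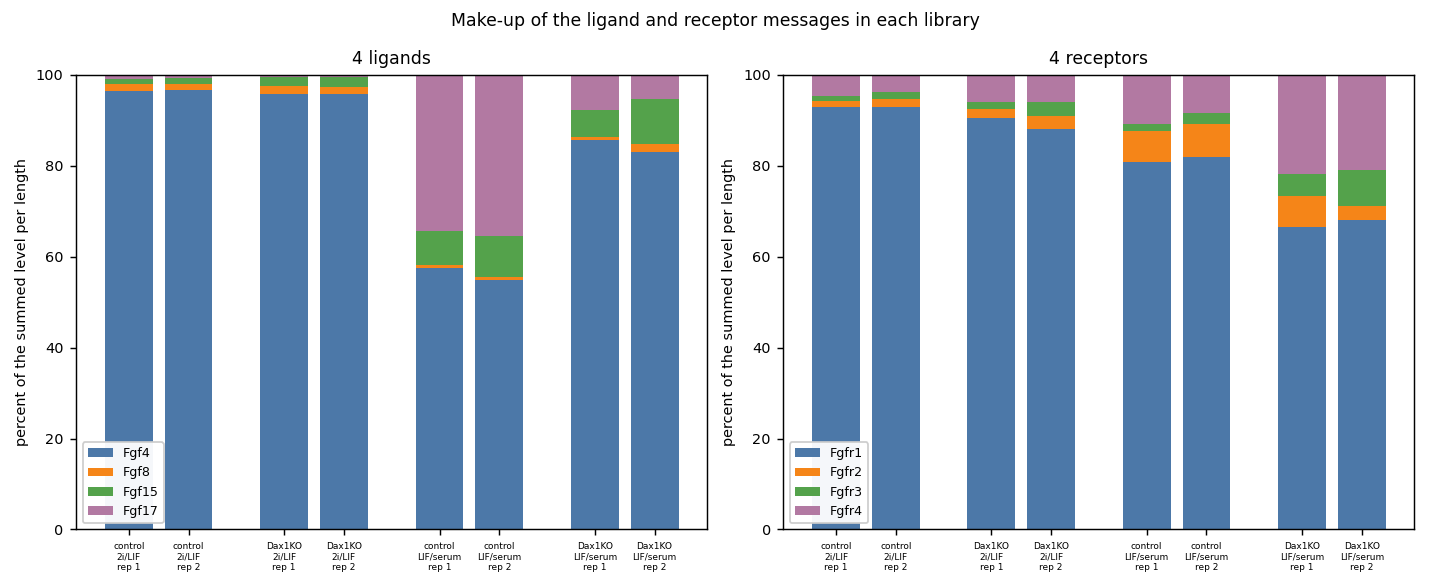
Each bar is 1 library, and its colours show the percentage (y axis) that each of the 4 ligands (left) or the 4 receptors (right) takes of their summed level, in counts per kilobase of merged exons per 1000000 counts. Fgf17 takes 34.4% and 35.6% of the ligand level in the control libraries in LIF/serum and 7.79% and 5.29% in the Dax1KO libraries, and Fgfr4 takes 21.9% and 21.01% of the receptor level in the latter.

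The normalised counts of the ligands in each library, scaled to the mean library size, were then compared between Dax1KO and control cells. A gene was called at an adjusted p of at most 0.05 from edgeR's quasi-likelihood test, Benjamini-Hochberg adjusted over 20749 genes, and a fold change of at least 1.2. In 2i/LIF, 0 of the 9 genes were called (background 3.16% of all genes tested, 1.51% higher and 1.65% lower), with 3 at an unadjusted p under 0.05 (Fgf17, Fgfr3 and Fgfr4), against 17.7% of all genes, and 0 called by DESeq2, against 7.01%. In LIF/serum, 3 were called (background 14.7%), namely Fgf17, lower in Dax1KO cells (background 5.78%), and Fgfr3 and Fgfr4, higher (background 8.87%). The libraries of Dax1KO and control cells did not overlap in 7 of the 9 genes in each medium, against 51.8% of all genes in 2i/LIF and 57.5% in LIF/serum. Over the 9 genes the log2 fold changes had medians of 0.056 (2i/LIF) and -0.37 (LIF/serum), beside -0.011 and 0.0065 for all genes.

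**Figure D2:**
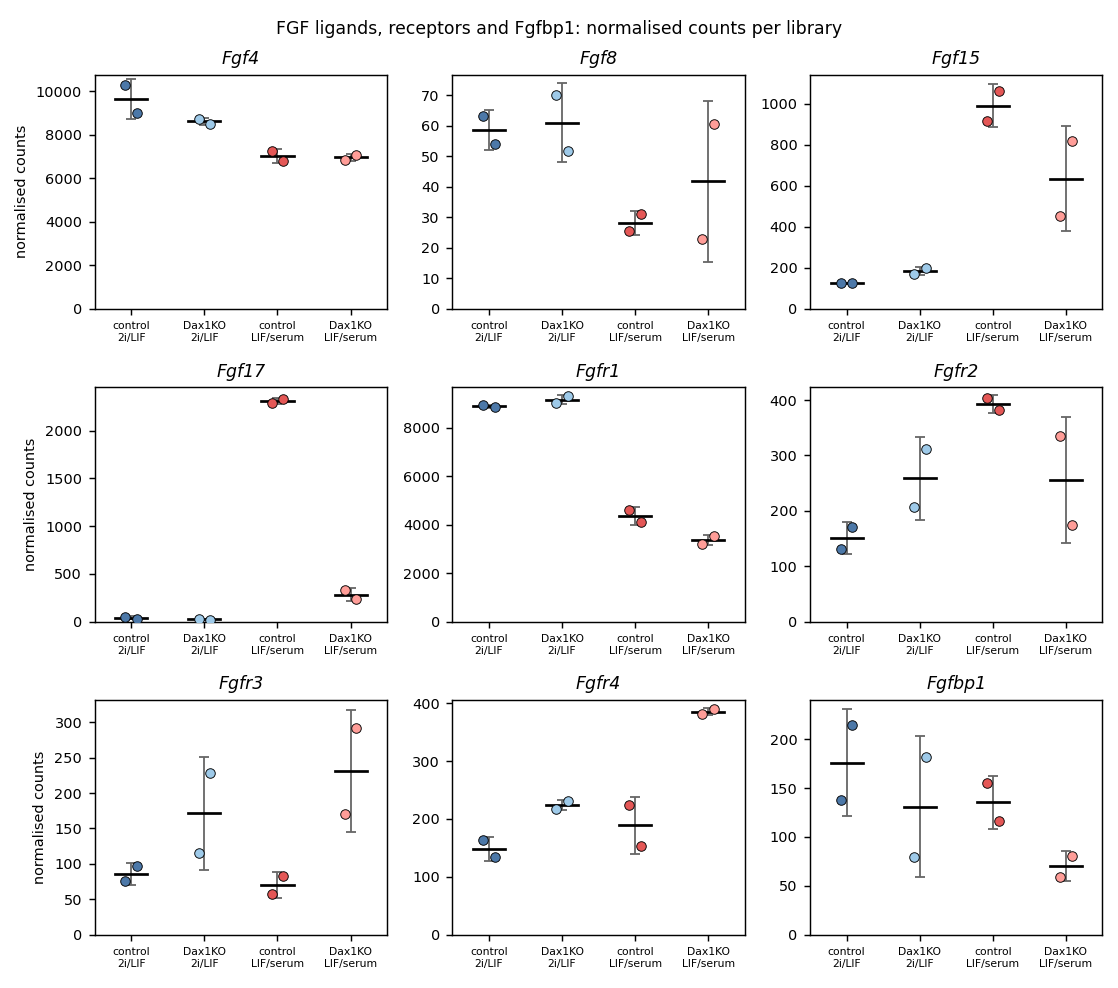
Points are the normalised counts (y axis, linear from 0, a different scale for each gene) of the 2 libraries of each of the 4 groups (x axis), horizontal bars are means and whiskers are 1 SD. Fgf17 stands at 2288 and 2328 in control cells in LIF/serum and at 329 or lower in the other 6 libraries, while Fgf4 lies between 6785 and 10295 in all 8.

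Fgf17 (chr14:70636203-70642268), a ligand of the Fgf8 subfamily active in the developing midbrain and cerebellum, changed most. In LIF/serum it had 2288 and 2328 normalised counts in control cells and 329 and 238 in Dax1KO cells. Both Dax1KO libraries lay far below both control libraries. The message fell 8.14-fold, with a log2 fold change of -3.02 (SE 0.24, 95% interval -3.58 to -2.47, adjusted p = 0.00109).

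In 2i/LIF, Fgf17 was already low, with 51.1 and 33.0 normalised counts in control cells and 28.2 and 21.5 in Dax1KO cells. The groups did not overlap, and the log2 fold change of -0.76 (SE 0.30, adjusted p = 0.236) was not called. The difference of the Dax1KO effect between media was a log2 value of -2.27 (SE 0.38, adjusted p = 0.0288), and Fgf17 was the 1 gene of the 9 called for it (background 2.87%, with 0.824% of genes called in its direction and 2.05% in the other). That call was lost without control replicate 2, Dax1KO replicate 1 or Dax1KO replicate 2 in 2i/LIF (adjusted p = 0.0864, 0.140 and 0.0896) and without control replicate 1, control replicate 2 or Dax1KO replicate 2 in LIF/serum (0.0618, 0.0656 and 0.0882), and with no filter on low counts (0.0805), over a range of 7.23e-06 to 0.140 in 12 alternatives. The fall in LIF/serum was called in 13 of 13 alternatives, with log2 fold changes of -3.28 to -2.81.

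Fgf4 (chr7:144847367-144865243) had 10295 and 8980 normalised counts in control cells and 8733 and 8482 in Dax1KO cells in 2i/LIF. The LIF/serum values were 7255 and 6785 in control cells and 6844 and 7058 in Dax1KO cells. The Dax1KO libraries lay below the controls in 2i/LIF and between them in LIF/serum. The log2 fold change was -0.16 (95% interval -0.41 to 0.085, adjusted p = 0.505) in 2i/LIF and -0.014 (95% interval -0.26 to 0.23, adjusted p = 0.956) in LIF/serum.

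The factors of the Fgf4 site were abundant in all groups. Sox2 had a log2 fold change of -0.50 (adjusted p = 0.0649) in 2i/LIF and -0.34 (adjusted p = 0.0882) in LIF/serum in Dax1KO against control cells. Pou5f1 had -0.43 (adjusted p = 0.126) and -0.20 (adjusted p = 0.330). edgeR called none of these 4 values, with 3 at an unadjusted p under 0.05, while DESeq2 called Sox2 in both media (adjusted p = 0.00528 and 0.0428, ranges 0.00528 to 0.336 and 0.0428 to 0.289) and Pou5f1 in 2i/LIF (0.0498, range 0.0498 to 0.478).

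Fgf15 (chr7:144896531-144900953), the mouse counterpart of human FGF19 and a hormone-like FGF, lies past Fgf4 on the same strand. It had 126 and 124 normalised counts in control cells and 171 and 199 in Dax1KO cells in 2i/LIF. In LIF/serum it had 915 and 1062 in control cells and 453 and 815 in Dax1KO cells. Dax1KO libraries were thus higher than both controls in 2i/LIF and lower than both in LIF/serum.

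The log2 fold changes of Fgf15 were 0.57 (SE 0.28, adjusted p = 0.348) in 2i/LIF and -0.64 (SE 0.26, adjusted p = 0.144) in LIF/serum, neither called. The difference between them was -1.21 (SE 0.38, adjusted p = 0.143), which DESeq2 called (adjusted p = 0.0468). Without Dax1KO replicate 2 in LIF/serum, the fall in that medium was called at a log2 fold change of -1.12 (adjusted p = 0.0495, range 0.0495 to 0.483 over 13 alternatives).

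Fgf8 (chr19:45736798-45742915), a ligand of gastrulation and brain patterning, was low in all groups. It had 63.2 and 54.01 normalised counts in control cells and 70.0 and 51.8 in Dax1KO cells in 2i/LIF, and 25.4 and 30.9 against 23.0 and 60.5 in LIF/serum. The groups overlapped in both media. The log2 fold changes were 0.056 (95% interval -0.99 to 1.11) and 0.56 (95% interval -0.55 to 1.67), both spanning 0, so neither a rise nor a fall was detectable with this spread between libraries.

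Among the receptors, Fgfr3 and Fgfr4 were called higher in Dax1KO cells in LIF/serum. Fgfr4 (chr13:55152640-55168759), a receptor of endodermal tissues and the main receptor for Fgf15 in liver, had 224 and 154 normalised counts in control cells and 381 and 390 in Dax1KO cells in LIF/serum. The 2i/LIF values were 163 and 134 in control cells and 218 and 231 in Dax1KO cells. Dax1KO libraries lay above both controls in both media. The rise was 2.04-fold in LIF/serum (log2 fold change 1.03, SE 0.23, adjusted p = 0.0244), and the log2 fold change was 0.59 (SE 0.23, adjusted p = 0.230) in 2i/LIF, not called.

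Fgfr3 (chr5:33721674-33737068), a receptor best known as a brake on bone growth, had 57.3 and 83.2 normalised counts in control cells and 170 and 293 in Dax1KO cells in LIF/serum. In 2i/LIF it had 75.2 and 97.0 in control cells and 115 and 228 in Dax1KO cells. The groups did not overlap in either medium, though the 2 Dax1KO libraries differed widely. The rise was 3.29-fold in LIF/serum (log2 fold change 1.72, SE 0.42, adjusted p = 0.0323), and the log2 fold change was 0.99 (SE 0.41, adjusted p = 0.257) in 2i/LIF, not called.

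Neither effect was shown to differ between media, with a difference of 0.44 (SE 0.32, adjusted p = 0.526) for Fgfr4 and 0.73 (SE 0.58, adjusted p = 0.559) for Fgfr3 on the log2 scale. In LIF/serum the call of Fgfr4 was lost in separate fits for each medium (adjusted p = 0.0536), without Dax1KO replicate 1 in 2i/LIF (0.0505), and without control replicate 2, Dax1KO replicate 1 or Dax1KO replicate 2 in LIF/serum (0.0837, 0.0788 and 0.107), over a range of 0.00348 to 0.107. The call of Fgfr3 was lost without the filter on low counts (adjusted p = 0.0781), without control replicate 2 in 2i/LIF (0.0520), and without control replicate 1, control replicate 2 or Dax1KO replicate 2 in LIF/serum (0.133, 0.0773 and 0.169), over a range of 0.00250 to 0.169. Both kept their direction, with log2 fold changes of 0.77 to 1.33 for Fgfr4 and 1.28 to 2.06 for Fgfr3.

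Markers of another lineage moved in the same libraries. The summed level of 6 primitive endoderm markers was 3915 to 5488 normalised counts in control cells and 12283 to 14567 in Dax1KO cells in LIF/serum, where 5 of the 6 were called higher (background 8.87%), and 1057 to 1072 against 1082 to 1393 in 2i/LIF, where 1 was (background 1.51%). In LIF/serum, 2 of 6 trophoblast markers were called higher and 1 lower (backgrounds 8.87% and 5.78%), 1 of 4 neural ectoderm markers was called lower (background 5.78%), and the summed level of 3 primed epiblast markers was 11886 to 14457 in control and 12041 to 12848 in Dax1KO cells. The summed level of 6 fibroblast markers was 458 to 486 in control and 1434 to 1498 in Dax1KO cells in LIF/serum, where 2 were called higher, with Lum and Postn at 0 and Dcn at no more than 3 counts in its libraries. Of these 6 markers, 5 passed the filter on low counts, and the LIF/serum background was 8.87%. In 2i/LIF their summed level ran the other way, 1869 to 2363 in control and 1263 to 1348 in Dax1KO cells, and 1 was called lower (background 1.65%). Most of each sum was Thy1, with means of 411 in control and 1269 in Dax1KO cells in LIF/serum, and 1957 and 1089 in 2i/LIF. Col1a1 had means of 33.5 and 147 in LIF/serum and 126 and 130 in 2i/LIF. Col1a2, Lum and Postn had higher means in Dax1KO than in control cells in 2i/LIF. The part of these markers in the values of Fgfr3, Fgfr4 and Fgf17 was not tested. In bulk RNA, a change in the number of cells of a type and a change in RNA per cell cannot be told apart.

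Fgfr1 (chr8:25513654-25575718), the main FGF receptor of ESCs, had 8917 and 8836 normalised counts in control cells and 9013 and 9292 in Dax1KO cells in 2i/LIF. In LIF/serum it had 4604 and 4094 in control cells and 3220 and 3517 in Dax1KO cells. The groups did not overlap in either medium. The log2 fold change was 0.044 (95% interval -0.20 to 0.29, adjusted p = 0.898) in 2i/LIF and -0.37 (SE 0.11, adjusted p = 0.0557) in LIF/serum, not called by edgeR and called by DESeq2 (adjusted p = 0.0226, range 0.0226 to 0.233 over 13 alternatives).

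Fgfr2 (chr7:130162451-133123350), the receptor that primitive endoderm and trophoblast raise in the blastocyst, had 130 and 171 normalised counts in control cells and 206 and 312 in Dax1KO cells in 2i/LIF. The LIF/serum values were 404 and 382 in control cells and 336 and 175 in Dax1KO cells. Dax1KO libraries were above the controls in 2i/LIF and below them in LIF/serum. Neither log2 fold change, 0.78 (SE 0.34, adjusted p = 0.284) and -0.62 (SE 0.34, adjusted p = 0.252), was called, nor was their difference of -1.40 (SE 0.48, adjusted p = 0.163).

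Fgfbp1 (chr5:43978858-43981779) encodes a carrier that frees FGFs from heparan sulfate. It had 137 and 215 normalised counts in control cells and 79.8 and 182 in Dax1KO cells in 2i/LIF, which overlapped, and 155 and 116 against 59.3 and 80.9 in LIF/serum, which did not. The log2 fold changes of -0.43 (SE 0.42, adjusted p = 0.683) and -0.95 (SE 0.43, adjusted p = 0.178) were not called.

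**Figure D3:**
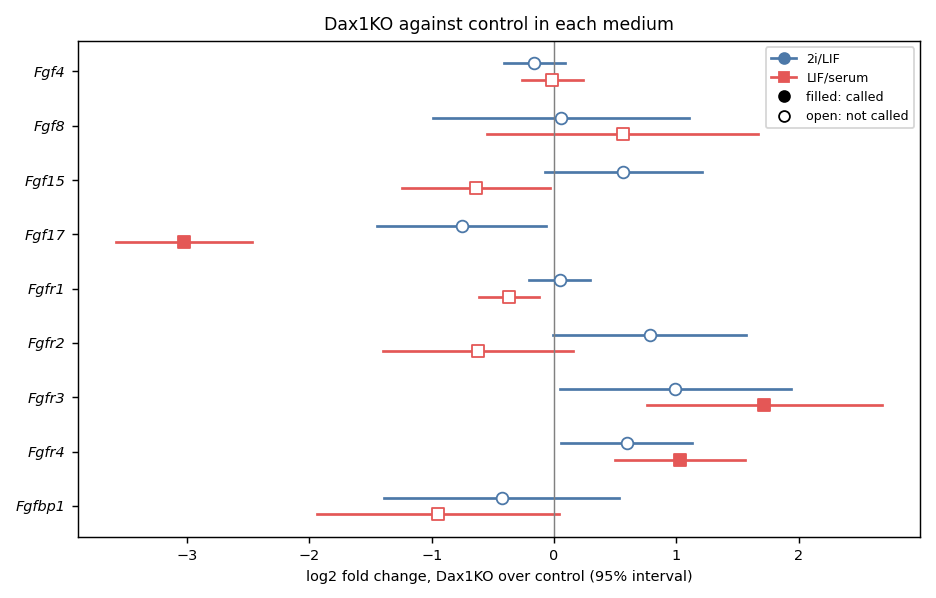
Log2 fold changes of Dax1KO over control cells (x axis) with 95% intervals are drawn for each gene (y axis) in 2i/LIF (circles) and LIF/serum (squares), filled where called. Fgf17 at -3.02, Fgfr3 at 1.72 and Fgfr4 at 1.03, all in LIF/serum, are the filled symbols, and Fgf4 lies at -0.16 and -0.014.

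More of the 9 genes were called between media, and so were more genes overall. The comparisons of 2i/LIF with LIF/serum use the same libraries as those above, so their values stand side by side and are not independent. In control cells 5 genes were called (background 36.8%), with Fgf4 and Fgfr1 higher (background 20.3%) and Fgf15, Fgf17 and Fgfr2 lower in 2i/LIF (background 16.5%). In Dax1KO cells 4 were called (background 28.9%), with Fgfr1 higher (background 15.2%) and Fgf15, Fgf17 and Fgfr4 lower in 2i/LIF (background 13.7%). The libraries of both media did not overlap in 6 of the 9 genes in control cells and in 5 in Dax1KO cells, beside 68.6% and 68.9% of all genes.

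Fgf17 was 54.7-fold lower in 2i/LIF than in LIF/serum in control cells (log2 fold change -5.77, SE 0.28, adjusted p = 1.79e-05) and 11.4-fold lower in Dax1KO cells (-3.51, SE 0.28, adjusted p = 0.000116). Fgf15 was 7.89-fold lower in control cells (-2.98, SE 0.29, adjusted p = 0.00021) and 3.42-fold lower in Dax1KO cells (-1.77, SE 0.28, adjusted p = 0.00250). Fgfr1 was 2.04-fold higher in 2i/LIF in control cells (log2 fold change 1.03, SE 0.11, adjusted p = 0.000296) and 2.72-fold higher in Dax1KO cells (1.44, SE 0.11, adjusted p = 9.4e-05). These 6 calls held in 12 of 12 alternatives each.

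Fgf4 was 1.37-fold higher in 2i/LIF in control cells (log2 fold change 0.46, SE 0.11, adjusted p = 0.0124), a call lost without control replicate 1 in 2i/LIF (adjusted p = 0.0779) or control replicate 2 in LIF/serum (0.0534), over a range of 0.00284 to 0.0779. In Dax1KO cells its log2 fold change was 0.31 (adjusted p = 0.0665), not called. Between media in control cells, the log2 fold change was -0.21 (adjusted p = 0.189) for Sox2 and -0.68 (adjusted p = 0.00469) for Pou5f1, and their part in the Fgf4 level was not tested.

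Fgfr2 was 2.61-fold lower in 2i/LIF in control cells (log2 fold change -1.38, SE 0.34, adjusted p = 0.0154), a call lost without control replicate 1 in 2i/LIF (adjusted p = 0.0925) or control replicate 1 in LIF/serum (0.0573), over a range of 0.000718 to 0.0925. In Dax1KO cells the groups overlapped and its log2 fold change was 0.021 (95% interval -0.75 to 0.79). Fgfr4 was 1.72-fold lower in 2i/LIF in Dax1KO cells (log2 fold change -0.78, SE 0.23, adjusted p = 0.0356), a call lost without the filter on low counts (adjusted p = 0.0623) and without either Dax1KO library of 2i/LIF (0.157 and 0.134) or of LIF/serum (0.109 and 0.121), over a range of 0.0174 to 0.157. In control cells its groups overlapped, with a log2 value of -0.34 (adjusted p = 0.285). Fgf8, Fgfr3 and Fgfbp1 were called in neither line, with log2 fold changes of 1.05, 0.29 and 0.38 in control cells and 0.55, -0.43 and 0.90 in Dax1KO cells.

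**Figure D4:**
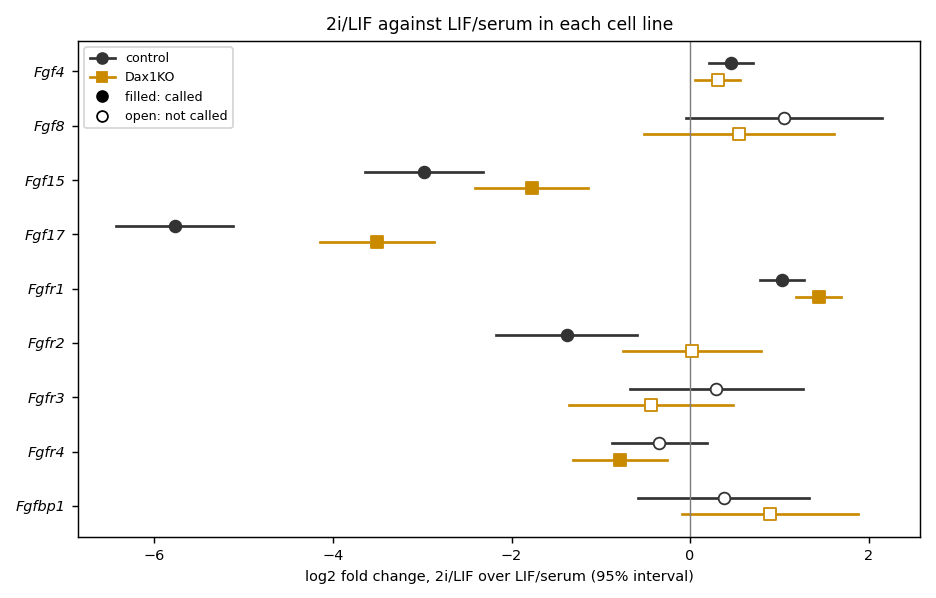
Log2 fold changes of 2i/LIF over LIF/serum (x axis) with 95% intervals are drawn for each gene (y axis) in control cells (circles) and Dax1KO cells (squares), filled where called. Fgf17 lies at -5.77 and -3.51, Fgf15 at -2.98 and -1.77, and Fgfr1 at 1.03 and 1.44 in control and Dax1KO cells.

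Some of these genes share exonic bases with a neighbour, and the sources used here do not state whether counting used strand. Fgf15 shares 761 exonic bases, 24.9% of its own, with the antisense gene Gm26793, which had raw counts of 18 and 14 in control cells in 2i/LIF and 94 and 78 in LIF/serum. Gm26793 moved the same way as Fgf15 between media at a far lower count, and reads of the shared bases cannot be told apart. Fgfr3 shares 13.9% of its exonic bases with G630022F23Rik, which had at most 11 counts in any library, and Fgfr1 shares 1.66% with Gm16159 and Fgfr2 3.04% with Ctbp2. Ctbp2 lies on the same strand as Fgfr2 and had 3758 to 9264 raw counts per library. For 2i/LIF against LIF/serum, its log2 fold change was -0.70 (adjusted p = 0.00344) in control cells, the direction of Fgfr2. In Dax1KO cells it was -1.02 (adjusted p = 0.000857), beside 0.021 for Fgfr2. For Dax1KO against control cells, it was -0.56 in 2i/LIF and -0.25 in LIF/serum, neither called, beside 0.78 and -0.62 for Fgfr2. The part of Ctbp2 in the Fgfr2 values was not tested.

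Fgf4 and Fgf15 lie in a cluster of FGF genes on chromosome 7, and the protein-coding genes within 200000 bases were described beside them. Fgf3, the third FGF of the cluster, had a log2 fold change of -0.90 (adjusted p = 0.235) in 2i/LIF and 0.93 (adjusted p = 0.120) in LIF/serum in Dax1KO against control cells. Without control replicate 2 in LIF/serum, Fgf3 was called higher there at 1.56 (adjusted p = 0.0359, range 0.0359 to 0.332), and its values over 13 alternatives ran from 0.49 to 1.56. Ccnd1, which encodes cyclin D1, had 5792 and 5354 normalised counts in control cells and 1373 and 1199 in Dax1KO cells in 2i/LIF, and 6209 and 4403 against 2113 and 1854 in LIF/serum. Ccnd1 fell 4.33-fold in 2i/LIF (adjusted p = 0.00436) and 2.67-fold in LIF/serum (adjusted p = 0.00382), with calls in 13 of 13 alternatives each.

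LTO1, whose span overlaps that of Ccnd1 on the opposite strand, fell by 1.29 (adjusted p = 0.00669) and 0.96 (adjusted p = 0.00513) on the log2 scale. The call of LTO1 in 2i/LIF was lost without Dax1KO replicate 1 (adjusted p = 0.0691) or Dax1KO replicate 2 (0.0732), over a range of 3.82e-13 to 0.0732. Ano1, a chloride channel gene on the other side of the cluster, was called in neither medium. The 2 genes past Fgf15 were thus lower in Dax1KO cells in both media, while Fgf4, Fgf3 and Fgf15 passed edgeR's test with all libraries in neither.

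**Figure D5:**
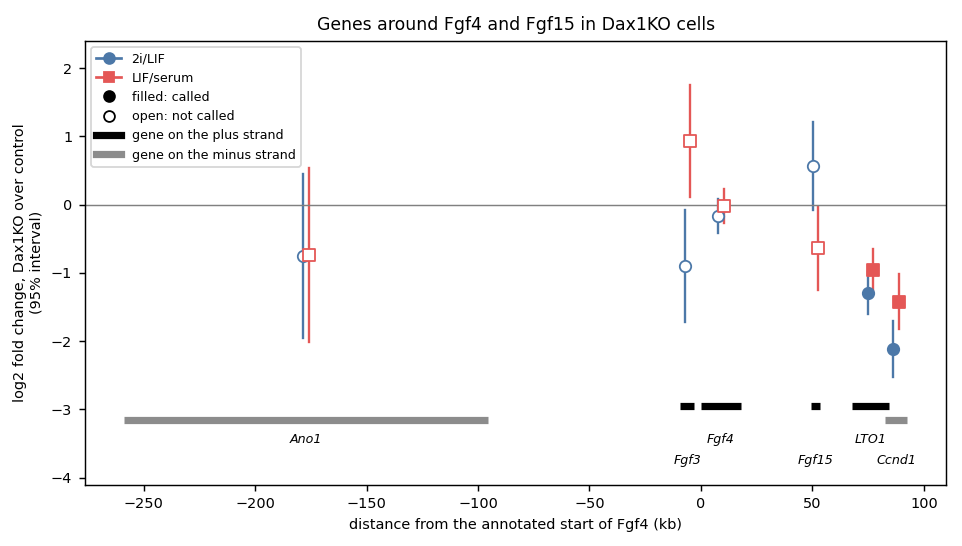
Log2 fold changes of Dax1KO over control cells (y axis) with 95% intervals are drawn at the middle of each gene, by distance in kb from the annotated start of Fgf4 (x axis), in 2i/LIF (circles) and LIF/serum (squares), filled where called, with gene spans below. Ccnd1 (-2.12 and -1.42) and LTO1 (-1.29 and -0.96) are filled in both media, and Fgf4 lies at -0.16 and -0.014.

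Other genes of the pathway were counted from lists of 79 genes, of which 72 were tested. In Dax1KO against control cells, 20 were called in LIF/serum (background 14.7%), 12 higher (background 8.87%) and 8 lower (background 5.78%), and 4 were called without Dax1KO replicate 2 in that medium. Among 12 other ligands tested, 3 were called: Fgf10, a ligand of Fgfr2, had 258 normalised counts on average in control cells and 860 in Dax1KO cells (3.33-fold higher, adjusted p = 0.0115), Fgf11, an intracellular FGF homologue, rose 2.90-fold (adjusted p = 0.00915), and Fgf18, of the Fgf8 subfamily, fell 5.60-fold from 108 to 19.2 (adjusted p = 0.0166). The call of Fgf10 was lost without control replicate 1 (adjusted p = 0.0544) or Dax1KO replicate 2 (0.0572), that of Fgf11 without Dax1KO replicate 2 (0.0526), and that of Fgf18 without control replicate 1, control replicate 2 or Dax1KO replicate 2 (0.0608, 0.0541 and 0.0784), all in LIF/serum.

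Among 16 co-receptors and binding proteins tested, 5 were called in LIF/serum, 4 higher and 1 lower, and for this and the lists that follow the backgrounds are 8.87% higher and 5.78% lower. The syndecan Sdc3 rose 2.64-fold (adjusted p = 0.00382), with a call in 13 of 13 alternatives. Among 12 heparan sulfate enzymes, 2 were higher and 2 lower, with Sulf1, a sulfatase that trims heparan sulfate, falling 2.97-fold from 2376 to 801 normalised counts (adjusted p = 0.00587), a call lost without Dax1KO replicate 2 in LIF/serum (0.0515). Of 16 adaptors and transducers, 2 were higher and none lower. Of 16 feedback and target genes, 2 were higher (Dusp4 and Etv4) and 4 lower (Spry2, Spred1, Etv1 and Egr1), and the median log2 fold change of the 16 was -0.14. The call of Egr1 was lost in 9 of 13 alternatives, 7 of which left out 1 library (any but Dax1KO replicate 1 in LIF/serum), with log2 fold changes of -2.52 to -1.01 and adjusted p up to 0.152.

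In 2i/LIF, 8 of the 72 were called in Dax1KO against control cells (background 3.16%), with Shc1, Spry2 and Etv4 higher and Fgfbp3, Flrt2, Sdc2, Hs6st1 and Etv5 lower. Fgfbp3, a relative of Fgfbp1, fell 4.31-fold from 99.1 to 22.9 normalised counts (adjusted p = 0.0303), and Flrt2, an adhesion protein that binds FGF receptors, fell 4.40-fold from 196 to 44.4 (adjusted p = 0.0328). When any 1 of the 4 libraries in 2i/LIF was left out, edgeR called 0 of the 72 and 38 to 166 of all genes. With all libraries DESeq2 called 14 of the 72 (7.01% of all genes), and an unadjusted p under 0.05 gave 23 (17.7% of all genes).

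Between media, 40 of the 72 were called in control cells (background 36.8%). Among 16 feedback and target genes, 10 were called lower in 2i/LIF (background 16.5%) and none higher, with a median log2 fold change of -0.91, beside 0.013 for all genes. The log2 fold changes of Il17rd and Fos were 0.91 (adjusted p = 0.274) and 0.70 (adjusted p = 0.0701). Spry4, a Sprouty inhibitor of the pathway, was 58.0-fold lower (9269 to 160 normalised counts, adjusted p = 5.04e-05), the immediate early gene Egr1 was 51.7-fold lower (adjusted p = 0.00018), and the ERK phosphatase Dusp6 was 25.3-fold lower (adjusted p = 2.15e-05). The 54.7-fold difference of Fgf17 lay between those of Spry4 and Egr1. Fgf5, a ligand of the primed epiblast, was counted 0 times in all 4 libraries in 2i/LIF and was at least 13.6-fold lower there than in LIF/serum in control cells against a floor of 3 counts per library.

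In Dax1KO cells 33 of the 72 were called between media (background 28.9%), and 9 of 16 feedback and target genes were lower in 2i/LIF (background 13.7%) and 1, Fos, was higher (background 15.2%). The call of Fos was lost without Dax1KO replicate 2 in 2i/LIF (adjusted p = 0.0536, range 0.000133 to 0.0536). Spry4 was 31.8-fold lower (adjusted p = 9.81e-05), Egr1 15.5-fold lower (adjusted p = 0.00095) and Dusp6 13.6-fold lower (adjusted p = 4.87e-05). Of 16 co-receptors and binding proteins, 10 were called higher and 3 (Klb, Flrt3 and Cdh2) lower in 2i/LIF in control cells (backgrounds 20.3% and 16.5%), and 6 higher and 2 (Klb and Flrt3) lower in Dax1KO cells. The syndecan Sdc4 was 5.38-fold higher (adjusted p = 3.9e-05) and the adhesion protein Ncam1 5.73-fold higher (adjusted p = 8.32e-05) in control cells.

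For each of the 9 genes, the genes with the most similar pattern were taken by Pearson's r of log2 normalised counts over the 8 libraries, among 13311 genes with a mean of at least 100. Fgf17 was most like Ina (r = 0.998) and Ppcs (0.997), Fgfr1 most like Lama3 (0.998) and Wdr76 (0.996), and Fgf15 most like Syt11 (0.994) and Mto1 (0.988). Fgf4 was most like Actn1 (0.982) and Cast (0.978), and Fgf8 most like Gm26762 (0.982) and Tcta (0.969). Fgfr4 was most like L1cam and Ppl (both 0.976), Fgfr3 most like Arhgap22 (0.972) and Arhgap18 (0.967), Fgfr2 most like Cdk6 (0.958) and Tdg (0.955), and Fgfbp1 most like Endod1 (0.962) and Rnf215 (0.955). The points of each r are the same 8 libraries, which form 4 groups.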

How the data were processed

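Counts were used as deposited by the authors, as whole-number counts per gene without normalization. The submitters' processing notes name HISAT2 2.0.4, mm10 and DESeq2, while the counting program, annotation and strand setting are not given in the sources used here. Low counts piled up at 3 and 6 and may not count single fragments, and floors of 3 counts cover counting error only, while the intervals come from the fit across libraries. Groups were taken from the sample titles, and 0 columns were left unused. Of 52550 genes, 52403 were found in GENCODE M21 (GRCm38).

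Genes were filtered with filterByExpr (20749 left), scaled by TMM (0.960 to 1.04) and fitted in edgeR 4.0.16 in R 4.3.3 with a mean for each of 4 groups, by the quasi-likelihood test with Benjamini-Hochberg adjustment (prior degrees of freedom 4.04, biological coefficient of variation 20.9%). The difference of the Dax1KO effect between media was called by adjusted p alone, all else with the fold of 1.2. The script was tested on simulated data. Alternatives were DESeq2 1.42.0, RLE factors, no filter, separate fits for each medium, an unadjusted p under 0.05, the replicate number as a block and each library left out. Replicate libraries differed beyond counting noise in every group. Overlaps are shared annotated exonic bases in GENCODE M21, and near-identical transcripts were sought with blastn 2.17.0 at 95% identity.

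The 9 genes and all lists were chosen with earlier results of these data known. Besides the 9, the rule named up to 4 called pathway genes in each direction and comparison, coding genes within 200000 bases of Fgf4 or Fgf15, the 2 genes most like each of the 9, Dax1, Sox2 and Pou5f1. Pathway genes listed by their calls only were named after their values were seen. A single pathway gene included in the counts is not reported here.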

Additional observations from a re-analysis of the deposited data

Results flagged for a closer look

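The effect of Dax1 loss differed between LIF/serum and 2i/LIF, by edgeR's test of the difference with Benjamini-Hochberg adjustment, for 1 of the 9 FGF genes and 5 of the 72 other pathway genes tested (background 2.87% of all genes). For Fgf17 the log2 difference was -2.27 (adjusted p = 0.0288, not called in 7 of 12 alternatives, 6 of which left out 1 library, with adjusted p up to 0.140), with Dax1KO against control at -0.76 (2i/LIF) and -3.02 (LIF/serum). The feedback inhibitor Spry2 had a difference of -1.41 (adjusted p = 0.0268), with Dax1KO against control at 0.78 in 2i/LIF (adjusted p = 0.0486, a call lost in 10 of 13 alternatives, 8 of which left out 1 library, with adjusted p up to 0.265) and at -0.63 in LIF/serum (adjusted p = 0.0388). The differences were positive for Flrt1 at 2.01 (adjusted p = 0.0400), Flrt2 at 2.61 (adjusted p = 0.0495), Sdc3 at 1.15 (adjusted p = 0.0482) and Sdc4 at 1.13 (adjusted p = 0.0373), which are adhesion proteins and syndecans that bind FGF receptors or ligands. Leaving out 1 library ended the call in 8 of 8 cases for Flrt1, Flrt2, Sdc3 and Spry2 and in 7 for Sdc4, with adjusted p up to 0.150, 0.185, 0.190, 0.113 and 0.152. The replicate block ended the calls of Flrt2 (adjusted p = 0.0567) and Sdc3 (0.0554), as did RLE factors (0.0507 and 0.0503), and no filter on low counts ended all 6 calls, with adjusted p of 0.0778 to 0.121.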

How the results depend on the processing

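Of 558 alternative values of the 9 genes' fold changes, 517 kept their direction and their side of the threshold, 26 lost a call, 3 gained one and 12 changed sign. Members called by an unadjusted p under 0.05 numbered 3 in 2i/LIF, 5 in LIF/serum and 4 for the difference between media (17.7%, 30.5% and 19.1% of all genes). For the difference DESeq2 called 2 members (7.28% of all genes) and the fit without a filter on low counts 0. Leaving out 1 library gave 0 members in 2i/LIF, 1 to 3 in LIF/serum (1 without control replicate 2), 0 to 1 for the difference, 3 to 5 between media in control cells (3 without control replicate 1 in 2i/LIF) and 3 to 4 in Dax1KO cells. For the other pathway genes, DESeq2 called 14 in 2i/LIF and 14 for the difference (7.01% and 7.28% of all genes). No filter gave 0 and 0 of these pathway genes, RLE factors gave 3 for the difference, and separate fits gave 12 in LIF/serum. An unadjusted p gave 23, 31 and 24 in 2i/LIF, in LIF/serum and for the difference (17.7%, 30.5% and 19.1% of all genes). Leaving out 1 library gave 0 to 8 of them in 2i/LIF (0 without any 1 of its 4 libraries, 5 without either Dax1KO library of LIF/serum), 4 to 17 in LIF/serum (4 without Dax1KO replicate 2, 10 without Dax1KO replicate 1, 12 without control replicate 2), 0 to 2 for the difference, 32 to 40 between media in control cells and 22 to 37 in Dax1KO cells (22 without Dax1KO replicate 2 in 2i/LIF). The sample titles link libraries of different groups by a replicate number only. Deviations of same-numbered libraries correlated at -0.015 to 0.11, which cannot show whether these libraries shared a culture or a batch. With the replicate block 0, 3, 1, 5 and 4 members and 7, 19, 3, 40 and 33 other pathway genes were called in 2i/LIF, LIF/serum, the difference, control cells and Dax1KO cells. Over all genes, 656, 3041 and 596 were called in 2i/LIF, in LIF/serum and for the difference, against 1455 and 1510 by DESeq2 in the first and last, 121, 1842 and 119 with no filter, 1743 in LIF/serum with separate fits, 3682, 6335 and 3970 by unadjusted p, and 38 to 673, 728 to 2496 and 36 to 344 when 1 library was left out, and between media 7641 and 5999 became 5057 to 7120 and 2986 to 6286. Sign changes came only from leaving out 1 library, in values that were not called: Fgf8 from -0.18 to 0.26 and Fgfbp1 from -1.14 to 0.045 in 2i/LIF, Fgf4 from -0.073 to 0.035 and Fgf8 from -0.29 to 1.10 in LIF/serum, Fgf8 from -0.35 to 1.04 and Fgfbp1 from -0.99 to 0.20 for the difference, Ccnd1 from -0.18 to 0.34 and Fgfbp1 from -0.024 to 0.67 between media in control cells, and Fgfr2 from -0.37 to 0.57 and Fgfr3 from -1.01 to 0.0085 in Dax1KO cells. Levels per length moved by more than 1 SD in 23 of 36 cases with the longest transcript as the length, which is shorter than or equal to the merged exons (Fgfr1 from 12.0 to 23.5 and Fgfr2 from 1.04 to 2.41 in control cells in LIF/serum). Why the other calls moved was not tested. With 2 libraries per group, genes whose libraries differ, such as Fgf8, have wide intervals.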

Other observations

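Fgf2, a ligand often added to primed pluripotent cells and picked here after its values were seen, was counted very unevenly within groups. Its counts were 6 and 50 in control cells and 103 and 74 in Dax1KO cells in 2i/LIF, and 2 and 73 in control cells and 87 and 5 in Dax1KO cells in LIF/serum. In LIF/serum the 2 libraries of each group thus lay further apart than the groups, and no direction is given for this gene.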
